A study of Mus musculus with 10 samples.

Results

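The NAc of C57BL/6J (B6) mice held 47 genes whose transcripts were close to missing from the NAc of DBA/2J (D2) mice. They were chosen by their measured levels in the 2 strains from the 29883 genes of the deposited count table, as CPM (a gene's count divided by the column total and multiplied by 1000000). A gene was included where its median over the 5 B6 mice was at least 0.5 CPM and its median over the 5 D2 mice was under 5% of that value. The limits were met by 49 genes, and 2 of them were left out beforehand. Both groups were ethanol-naive males from the Jackson Laboratory, group-housed and sacrificed at 9 weeks of age. B6 and D2 are fully inbred strains and neither carried a transgene or received a treatment. The tissue was the NAc, which lies in the ventral striatum, and each library held poly-A RNA of 1 mouse. Because the choice used the B6 and D2 levels themselves, the difference between strains in these 47 genes is given as a description, without a test. In bulk tissue fewer cells of a type and less RNA per cell cannot be told apart.

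B6 is the strain of the mouse reference genome, and D2 is a distantly related inbred strain used with it as a parent of the BXD recombinant inbred lines. Inbred strains differ not only in single bases but also in deletions, duplications and mobile element insertions, and families of young gene copies, such as C2H2 zinc finger genes, vary in number between strains. Long non-coding RNAs (lncRNAs) are transcripts without a known protein product, and many of them are expressed at low level and evolve quickly. The reads of both strains were aligned to the B6 genome. A gene that D2 mice lack, a gene that they do not express and a gene whose D2 reads differ too much from the B6 sequence, or match another locus as well, cannot be told apart from gene counts.

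Column totals were 96977262 to 111468080 reads in B6 and 104443243 to 116776714 in D2. All 8 markers of striatal neurons were detected, with a summed level of 3508 to 4766 CPM in B6 and 3105 to 3779 CPM in D2, and none of the 47 genes belonged to any of the cell type marker lists. Of these 8 markers 5 were called lower in D2 and none higher, against 9.83% and 8.5% of all genes (edgeR adjusted p under 0.05). Of 4 markers each, 2 were called lower for oligodendrocytes, for blood and for astrocytes, and 1 for choroid plexus. Called higher were 1 astrocyte marker and 1 microglia marker. No marker of cortical projection neurons, ependyma or endothelium was called. The part of tissue composition in strain differences was not tested. Markers of cortical projection neurons summed to 76.4, 69.9, 853, 149 and 866 CPM in B6 mice 1 to 5 and to 203 to 551 CPM in D2, so that B6 mice 3 and 5 stood apart in dissected tissue markers. The libraries of B6 mice 3 and 5 were also the most alike of all pairs within a strain, with a mean chi-square of 4.89. The other pairs had 17.5 to 119. Both libraries are counted as separate mice throughout, and whether they are independent was not tested. The library of B6 mouse 4 stood apart in another measure. When the same limits were applied with the strains exchanged, 101 genes were expressed almost only in D2 (the D2 counterpart set), and B6 mouse 4 held these at 6.37% of their mean D2 level, against 0.967% to 2.03% in the other B6 mice. Whether RNA or reads of D2 mice reached this library was not tested. Without B6 mouse 4 the limits gave 45 genes, of which 44 belonged to the 47. Fgl1, Gm9732 and Gm49700 dropped out and Gm40518 came in. The D2 counterpart set held 114 genes without B6 mouse 4, among them all 101. Shares of this set given below refer to the 101 genes.

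Non-coding genes made up most of the set. It held 21 lncRNAs (44.7%, against 20.4% of the 29519 table genes found in the annotation) and 13 protein-coding genes (27.7% against 58.7%). A further 7 genes were of the class TEC (14.9% against 7.10%), which holds transcribed regions with no settled structure. Another 6 were unprocessed pseudogenes, that is, copies made by duplication (12.8%, against 1.20% for all pseudogenes other than processed ones). Processed pseudogenes, the intronless copies made by reverse transcription, were absent from the set, although they made up 8.91% of all genes and 63.4% of the D2 counterpart set. A single block of exon sequence was found in 9 of the 47 genes (19.1%, against 24.6% of all genes and 74.3% of the D2 counterpart set). The median length of exon sequence was 3631 bases in the set and 3593 bases over all genes.

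**Figure D1:**
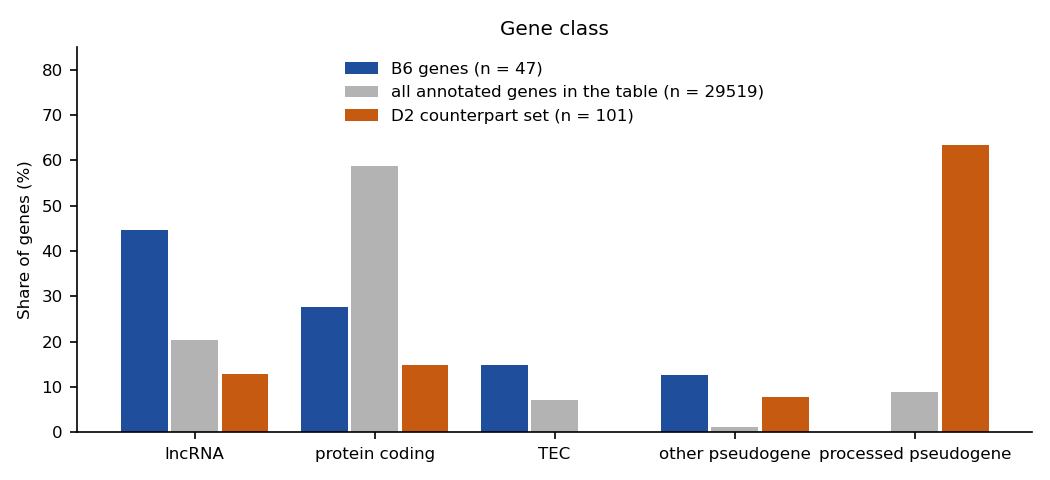
Share of genes (%) in each annotation class for the 47 genes expressed almost only in B6, for all 29519 annotated genes of the table and for the 101 genes of the D2 counterpart set. lncRNAs made up 44.7% of the B6 genes, and processed pseudogenes made up 63.4% of the D2 counterpart set and none of the B6 genes.

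The genes were spread over 16 chromosomes, and some chromosomes held more of them than their share of all genes. Chromosome 4 held 9 (19.1%, against 5.50% of all genes), chromosome 3 held 6 (12.8% against 5.52%) and chromosome 12 held 6 (12.8% against 4.22%). There were 4 each on chromosomes 8 and 11, 3 each on chromosomes 1, 2 and 14, and none on chromosomes 5, 6, 13, 15 and 18. The Y chromosome held the lncRNA G530011O06Riky and the X chromosome held the lncRNA Gm15169. In all, 15 genes lay within 1 Mb of another gene of the set, in 5 groups. The largest group held 6 genes within 728 kb of chromosome 4, and a group of 3 lay within 288 kb of chromosome 12. Chromosome 12 held 5 of its 6 genes between 20 and 25 Mb.

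Most of the 47 genes were expressed at low level in B6. Their median B6 CPM lay between 0.5 and 1 in 20 genes, between 1 and 3 in 14, between 3 and 10 in 8 and above 10 in 5. The lncRNAs A830036E02Rik and 1500004A13Rik together held 57.9% of the CPM summed over the set. In D2 the median level was 1.57% of the B6 median for the middle gene of the set, and 8 genes had a D2 median of 0. Gm45854, a TEC gene, had a count of 0 in every D2 mouse and counts of 106, 103, 89, 66 and 95 in B6 mice 1 to 5. Set against the 3 counts per library that a count of 0 still allows, it was at least 30.6-fold higher in B6. Another 17 genes had a count of 0 in at least 1 D2 mouse. Every B6 mouse was above every D2 mouse in 46 of the 47 genes, which the choice itself favours, and 7.22% of all genes showed the same order. The exception was Lcn2. The count of 46 was the same without B6 mouse 4.

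**Figure D2:**
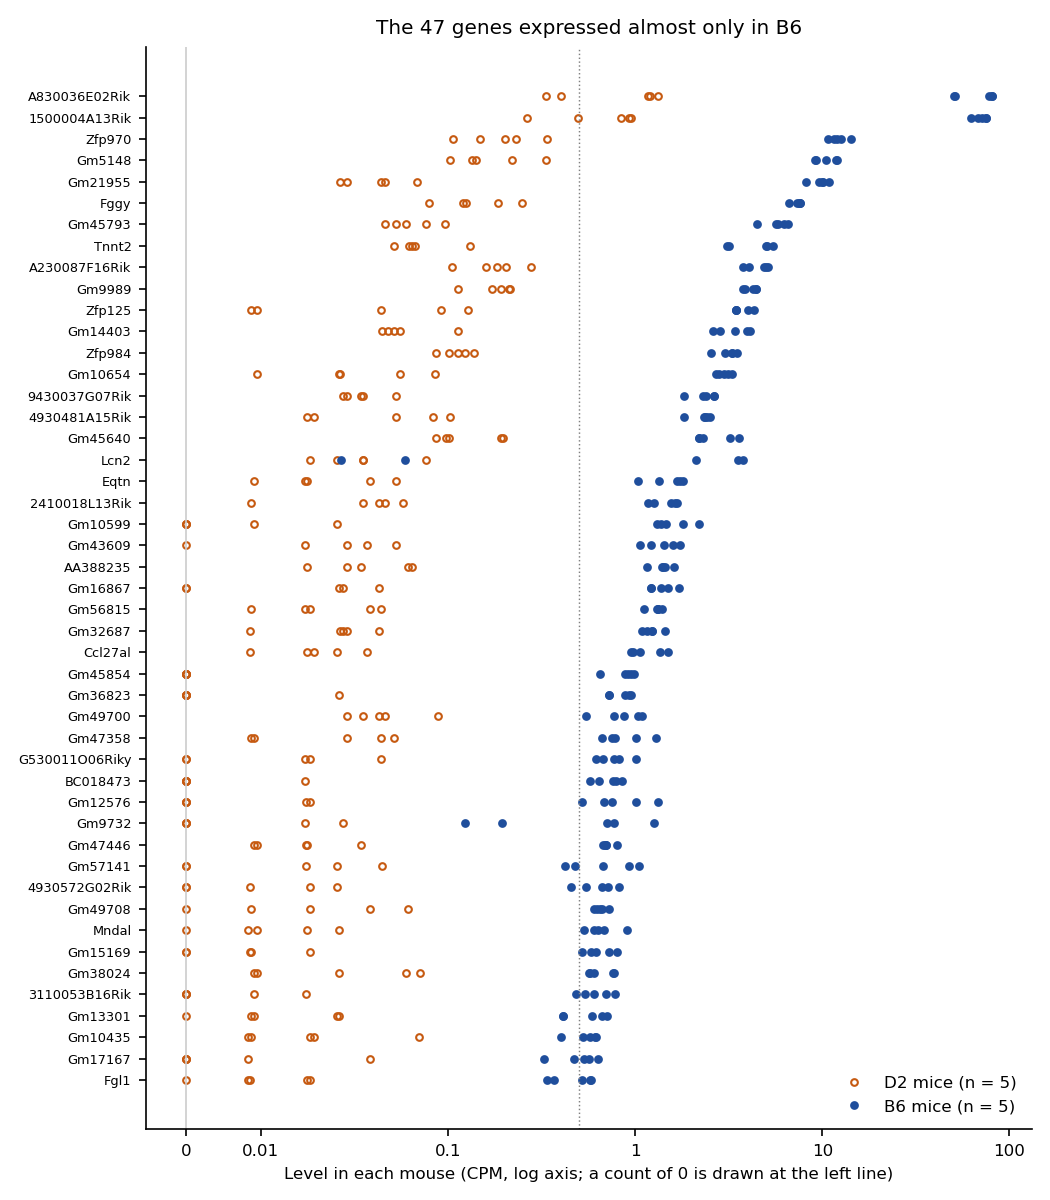
Level in CPM (log axis) of each of the 47 genes in each of 5 B6 mice (filled) and 5 D2 mice (open), ordered by the B6 median, with counts of 0 drawn at the left line and the limit of 0.5 CPM dotted. The strains are apart in every gene but Lcn2, in which 2 B6 mice lie among the D2 mice.

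The choice was repeated with each mouse left out, which gave 45 to 51 genes of which 44 to 47 were in the set, and the genes were then read in the left-out mouse. A left-out B6 mouse held them at a median of 85.5% to 103% of the median of the other B6 mice, the lowest being B6 mouse 4. The gene with the lowest share in B6 mice 1 and 4 was Lcn2, at 0.951% and 2.09%. A left-out D2 mouse held them at a median of 1.09% to 2.24% of the B6 median. No gene reached 50% in any left-out D2 mouse, a mark far above the 5% used in the choice. Under 5% in left-out D2 mice 1 to 5 were 43 of 48, 44 of 46, 40 of 46, 43 of 46 and 41 of 45 genes. The highest value in each left-out D2 mouse was 7.14% to 12.1%.

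The limits separated genes with similar values. Just inside the limit of 5% were the lncRNA Gm49700 (4.93% of the B6 median), the lncRNA Gm9989 (4.54%) and the TEC gene Gm45640 (4.38%). Just outside it were Gm10548 (5.25%), 9230009I02Rik (5.47%) and Gm20743 (5.51%). Just above the minimum level were Fgl1 (0.519 CPM), Gm17167 (0.536 CPM) and Gm10435 (0.577 CPM). Gm10856 (0.484 CPM), Gm37460 (0.483 CPM) and ENSMUSG00000073179 (0.474 CPM) fell below it. There were 29 genes between 5% and 10% of the B6 median.

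A830036E02Rik (chr11:99307782-99316323, GRCm39, plus strand) had the highest median B6 level of the set, also per length, at 12.3 CPM per kb of exon sequence. Its counts were 8666, 8365, 4915, 8152 and 5512 in B6 mice 1 to 5 and 140, 128, 151, 38 and 42 in D2 mice 1 to 5. This gave 68.0 ± 15.8 CPM in B6 and 0.887 ± 0.477 CPM in D2 (SD, n = 5 each). B6 mice 3 and 5 were the low ones of their strain, and D2 mice 4 and 5 were the low ones of theirs. No second locus with at least 95% identity over at least 50% of its longest transcript was found in the reference genome. It overlaps Krt12, a keratin gene on the opposite strand, over 1072 bases of exon sequence. Krt12 was not a member of the set, and its level fell from 4.97 ± 1.21 CPM in B6 to 0.512 ± 0.178 CPM in D2, a log2 fold change of -3.30 ± 0.23 (SE, edgeR quasi-likelihood test, adjusted p = 4.54e-07). The library kit kept the strand, but the strand setting used in counting was not given in the sources used here, so reads of the overlapping part may belong to either gene. The 250 bases before the first RefSeq start of A830036E02Rik (chr11:99416993-99417242 in GRCm38.p6, plus strand) are shown because this was the highest level of the set in a gene without a copy. Capitals mark the motif CCAAT or its reverse complement ATTGG.
A830036E02Rik: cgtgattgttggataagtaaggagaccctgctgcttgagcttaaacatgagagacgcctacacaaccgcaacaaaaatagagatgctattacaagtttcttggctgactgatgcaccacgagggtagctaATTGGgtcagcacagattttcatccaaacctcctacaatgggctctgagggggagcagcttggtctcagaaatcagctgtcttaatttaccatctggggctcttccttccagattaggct

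RefSeq promoters of GRCm38.p6 were found for 20 of the 47 genes. Over the 250 bases before the start, and on either strand, CCAAT was present in 11 of the 20 and in 33.9% of all 32851 promoters. The GC box GGGCGG was present in 11 of 20 against 32.7%, and TATAAA was present in 1 of 20 against 12.4%. Their median GC content was 53.4%, against 52.4% for all promoters. The median number of CpG (C followed by G) was 4.5 against 6, and at least 10 were present in 4 of 20 against 37.8%. The closely alike promoters of Zfp970 and Gm14403 were each counted. The motif matches describe the B6 reference sequence and are not evidence of binding.

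1500004A13Rik (chr3:88690250-88742502, GRCm39, minus strand) was the other lncRNA with a high count. Its counts in B6 were 7609, 7436, 7278, 6356 and 8128, and in D2 they were 98, 101, 109, 30 and 52. The B6 mice were close to each other at 70.5 ± 5.23 CPM, and the D2 mice were at 0.697 ± 0.303 CPM, again with D2 mice 4 and 5 lowest. It has a copy with 96.6% identity over 94.2% of its longest transcript, at chr3:88801724-88807262 within the span of Gon4l. The copy differs from the transcript by 149 substitutions among 5493 aligned bases, and the longest run without a difference was 687 bases. The 60-base stretch with the most differences is shown for both loci, since reads can be placed at one or the other only where they differ. Capitals mark the 15 bases that differ between chr3:88729540-88729599 and chr3:88804317-88804376, both on the minus strand of GRCm39.
1500004A13Rik: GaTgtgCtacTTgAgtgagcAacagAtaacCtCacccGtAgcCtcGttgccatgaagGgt
copy within Gon4l: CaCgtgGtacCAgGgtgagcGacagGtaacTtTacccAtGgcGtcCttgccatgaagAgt

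Gon4l, which encodes a nuclear regulator of transcription, was higher in D2 (72.5 ± 2.17 CPM in B6, 83.1 ± 0.819 CPM in D2, log2 fold change 0.17 ± 0.03 SE, edgeR adjusted p = 0.000484). 5830417I10Rik, a transcribed pseudogene on the opposite strand that shares 4835 bases of exon sequence with 1500004A13Rik, was lower in D2 (10.8 ± 1.23 and 6.32 ± 0.366 CPM, log2 fold change -0.81 ± 0.07 SE, edgeR adjusted p = 4.69e-06). Gon4l is on the plus strand. On the strand of the copy, the annotation has the lncRNA Gm43713, with counts of 3 to 13 in B6 and of 3 to 6 in D2 (log2 fold change -1.11 ± 0.41 SE, edgeR adjusted p = 0.0880, or 0.0203 without B6 mouse 5).

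The other lncRNAs named by level were each below 5 CPM. A230087F16Rik had 4.58 ± 0.623 CPM in B6 and 0.186 ± 0.0634 CPM in D2, and Gm9989 had 4.15 ± 0.312 and 0.181 ± 0.0412 CPM. Both had counts of at least 12 in every D2 mouse. Counts of 4930481A15Rik were 259, 189, 243, 239 and 262 in B6 and 12, 9, 6, 2 and 2 in D2. 9430037G07Rik had counts of 256, 275, 232, 184 and 286 in B6 and of 3 to 6 in D2. It overlaps Zfp949, a zinc finger gene on the opposite strand, over 128 exonic bases, and Zfp949 was higher in D2 (23.5 ± 1.99 CPM in B6, 81.8 ± 3.87 CPM in D2, log2 fold change 1.77 ± 0.05 SE, edgeR adjusted p = 2.59e-10). The gene at its best copy, 9330159M07Rik, was lower in D2 (2.06 ± 0.349 and 0.689 ± 0.0890 CPM, log2 fold change -1.61 ± 0.15 SE, edgeR adjusted p = 5.06e-06). That copy matches 56.7% of the longest transcript of 9430037G07Rik. Another locus matches 100% of it at 98.0% identity and holds no counted gene. The overlapping gene and the gene at the partial copy thus changed in opposite directions around this lncRNA. The other 15 lncRNAs had median B6 levels of 0.536 to 1.56 CPM, counts of at least 33 in every B6 mouse and of at most 10 in any D2 mouse, and 9 of them had a count of 0 in at least 1 D2 mouse.

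Of the 13 protein-coding members, 2 carry a zinc finger symbol, Zfp970 and Zfp984. C2H2 zinc finger proteins bind DNA, and many members of this family repress mobile elements. Zfp970 (chr2:177156498-177183583) had counts of 1595, 1111, 1222, 1223 and 1248 in B6 and of 27, 37, 17, 12 and 21 in D2, or 12.2 ± 1.36 and 0.205 ± 0.0894 CPM. Gm14403 begins 6.39 kb to its right on the same strand. It had counts of 383, 271, 398, 288 and 429 in B6 and of 6, 6, 13, 5 and 5 in D2. The level of Gm14403 was 3.39 ± 0.664 CPM in B6 and 0.0625 ± 0.0290 CPM in D2. Zfp970 has 17 other loci above the 95% limit, and the best of them holds Zfp971, at 98.4% identity. Zfp971 had 9.87 ± 1.13 CPM in B6 and 11.9 ± 1.28 CPM in D2 and did not pass the test (log2 fold change 0.24 ± 0.09 SE, edgeR adjusted p = 0.0818), although it did by DESeq2 (adjusted p = 0.0438), without B6 mouse 1 (edgeR adjusted p = 0.0176) and without D2 mouse 5 (edgeR adjusted p = 0.0462). The best copy of Gm14403 holds Gm14322, at 95.1% identity, which had 3.61 ± 0.177 CPM in B6 and 4.41 ± 0.472 CPM in D2 (log2 fold change 0.26 ± 0.08 SE, edgeR adjusted p = 0.0417, lost in 8 of the 10 fits that leave out 1 mouse).

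The 250 bases before the starts of Zfp970 (chr2:177464492-177464741), Gm14403 (chr2:177497976-177498225) and Zfp971 (chr2:178023034-178023283) are printed to show how alike they are, from RefSeq on GRCm38.p6, plus strand, with CCAAT and ATTGG in capitals. Zfp970 and Zfp971 were identical at 97.5% of 241 aligned bases, and Zfp970 and Gm14403 at 95.3% of 235. All 3 held ATTGG and CCAAT in the same order. Zfp970 and Gm14403 were close to 0 in D2 and Zfp971 was not.
Zfp970: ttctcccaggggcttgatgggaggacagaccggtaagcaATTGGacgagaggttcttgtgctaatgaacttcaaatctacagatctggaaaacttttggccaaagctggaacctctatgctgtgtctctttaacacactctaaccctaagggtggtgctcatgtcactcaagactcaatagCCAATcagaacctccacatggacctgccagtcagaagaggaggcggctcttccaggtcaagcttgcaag
Gm14403: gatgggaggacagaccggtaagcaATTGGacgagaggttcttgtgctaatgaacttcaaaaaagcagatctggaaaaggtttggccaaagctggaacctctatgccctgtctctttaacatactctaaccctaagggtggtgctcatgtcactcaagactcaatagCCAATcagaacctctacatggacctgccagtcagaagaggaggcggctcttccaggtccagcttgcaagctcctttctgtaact
Zfp971: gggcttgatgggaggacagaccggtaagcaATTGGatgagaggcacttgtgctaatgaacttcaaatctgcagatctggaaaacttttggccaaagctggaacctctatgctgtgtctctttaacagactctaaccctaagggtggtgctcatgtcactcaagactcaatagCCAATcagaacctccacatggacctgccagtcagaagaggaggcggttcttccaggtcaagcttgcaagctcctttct

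Zfp984 (chr4:147838429-147894327) had counts of 391, 266, 320, 305 and 356 in B6 and of 16, 11, 13, 14 and 9 in D2, so that the D2 median was 3.46% of the B6 median. Zfp268, at its best copy (96.7% identity), was higher in D2 (0.0671 ± 0.0383 and 0.323 ± 0.0530 CPM, log2 fold change 2.22 ± 0.34 SE, edgeR adjusted p = 0.000428). Zfp125, which is annotated as a pseudogene, had counts of 484, 415, 334, 350 and 374 in B6 and of 15, 10, 5, 1 and 1 in D2. In the 415 other genes whose symbol begins with Zfp, 41 were called lower in D2 (9.88%) and 65 higher (15.7%), against 9.83% and 8.5% of all genes at an edgeR adjusted p under 0.05. The other genes of that name were thus called lower about as often as genes in general.

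Gm5148 (chr3:37767431-37778667) had counts of 1330, 1239, 895, 1063 and 995 in B6 and of 12, 24, 38, 16 and 14 in D2, or 10.6 ± 1.36 and 0.186 ± 0.0926 CPM. Fggy, which encodes a carbohydrate kinase of the FGGY family, had 7.34 ± 0.401 CPM in B6 and 0.151 ± 0.0663 CPM in D2. Its counts were 847, 766, 736, 674 and 813 in B6 and 14, 27, 9, 21 and 13 in D2, so that even the highest D2 count was far below the lowest B6 count. Fggy is a long gene of 37 exon blocks on chromosome 4 without a copy above the limit. Eqtn, which encodes equatorin of the sperm acrosome, lies on the same stretch of chromosome 4 and had 1.52 ± 0.327 CPM in B6, with a count of at most 6 in any D2 mouse. The counted genes nearest to both did not move together. Mysm1, a histone H2A deubiquitinase gene 5.24 kb from Eqtn, was higher in D2 (44.1 ± 2.58 and 55.0 ± 2.91 CPM, log2 fold change 0.29 ± 0.05 SE, edgeR adjusted p = 0.00122). Junos, the nearest counted gene to the left of Fggy but 390 kb away, was lower in D2 (log2 fold change -0.58 ± 0.10 SE, edgeR adjusted p = 0.00151). Hook1, 40.2 kb to its right, did not pass the test (111 ± 6.33 and 119 ± 5.66 CPM, edgeR adjusted p = 0.306). The low level in D2 of Fggy and Eqtn was thus not shared by all genes of the stretch.

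Tnnt2, which encodes cardiac troponin T of the thin filament, had counts of 562, 518, 301, 556 and 345 in B6 and of 6, 7, 15, 7 and 7 in D2, or 4.36 ± 1.12 and 0.0752 ± 0.0319 CPM. B6 mice 3 and 5 were again the low ones of their strain. A second troponin gene, Tnni1, lies 25.01 kb away, with Lad1 between them. Tnni1 encodes the slow skeletal troponin I and fell from 4.32 ± 0.801 to 0.319 ± 0.0994 CPM (log2 fold change -3.78 ± 0.20 SE, edgeR adjusted p = 3.61e-08). It was named after its values were seen. Lad1, the ladinin gene 2.66 kb from Tnnt2, was lower as well (2.40 ± 0.164 and 0.642 ± 0.102 CPM, log2 fold change -1.93 ± 0.11 SE, edgeR adjusted p = 1.07e-07). Pkp1, the plakophilin gene 18.8 kb on the other side, had 0.120 ± 0.0642 CPM in B6 and 0.271 ± 0.114 CPM in D2 and did not pass the test (log2 fold change 1.13 ± 0.38 SE, edgeR adjusted p = 0.0585), although it did under 5 of the alternatives, with DESeq2 at an adjusted p of 0.0280. Of the other troponin T genes, Tnnt1 on another chromosome was higher in D2 (6.33 ± 2.17 and 17.0 ± 5.57 CPM, log2 fold change 1.40 ± 0.26 SE, edgeR adjusted p = 0.00221) and Tnnt3 did not pass the test (edgeR adjusted p = 0.471).

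Gm16867 had counts of 135, 143, 167, 124 and 163 in B6 and of 5, 3, 3, 0 and 0 in D2. A second locus on chromosome 14 matched 91.9% of its longest transcript with 100% identity, so reads from it could not be placed at one of the 2 loci alone over that length. Gm32687 had counts of 105 to 161 in B6 and of 1 to 5 in D2, and its best copy was 99.8% identical. Its left neighbour Gm3055 was lower in D2 (log2 fold change -2.53 ± 0.52 SE, edgeR adjusted p = 0.00415), with counts of 92, 64, 68, 0 and 19 in the D2 mice. Mndal, a member of the interferon-inducible HIN-200 family on chromosome 1, had counts of 71, 63, 66, 54 and 98 in B6 and of 0 to 3 in D2. Ifi203, a gene of the same family at its best copy (95.9% identity), was lower in D2 too (1.08 ± 0.0670 and 0.320 ± 0.0904 CPM, log2 fold change -1.78 ± 0.18 SE, edgeR adjusted p = 1.3e-05). Other genes of the family nearby went other ways. Ifi202b, 81.7 kb from Mndal, had counts of 0 to 2 in B6 and of 18 to 30 in D2 (log2 fold change 4.83 ± 0.55 SE, edgeR adjusted p = 3.64e-05), and Ifi211, also at the best copy, had counts of 1 to 6 in B6 and did not pass the test (log2 fold change -0.11 ± 0.52 SE, edgeR adjusted p = 0.925). Fgl1, a fibrinogen-like gene expressed mainly in liver, had the lowest median B6 level of the set, with counts of 65, 54, 33, 58 and 40 in B6 and of 0 to 2 in D2.

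The B6 mice were close to each other in most of the 47 genes, with a median coefficient of variation of 15.8%. It was above 30% in 4 genes and reached 95.2% in Lcn2. Lcn2 encodes lipocalin 2, a secreted protein that binds iron-loaded siderophores and rises in inflammation. Its counts were 3, 220, 344, 6 and 406 in B6 mice 1 to 5 and 3, 2, 4, 4 and 8 in the D2 mice. B6 mice 1 and 4 lay within the range of D2, so the strains overlapped in Lcn2. Gm9732, a pseudogene of chromosome 14, had counts of 79, 132, 12, 78 and 21 in B6 and of 2, 3, 0, 0 and 0 in D2. Gm57141 and Gm12576, the other 2 genes above 30%, were highest in B6 mice 3 and 5, with counts of 90 and 113 against 44 to 68 in the other B6 mice for Gm57141 and of 98 and 144 against 54 to 84 for Gm12576. Over the set, B6 mice 3 and 5 were the 2 lowest B6 mice in 12 genes, among them Gm9732, A830036E02Rik and Tnnt2, and the 2 highest in 15, among them Lcn2, Gm57141, Gm12576 and Gm45640. These were the mice with the highest cortical marker levels (853 and 866 CPM, against 69.9 to 149 CPM in the other 3) and the lowest striatal marker levels of B6 (3544 and 3508 CPM, against 4162 to 4766 CPM). They also had the highest oligodendrocyte marker levels of B6 (4785 and 4745 CPM, against 3435 to 4026 CPM) and the lowest choroid plexus marker levels (5.52 and 5.18 CPM, against 7.89 to 8.54 CPM). The part of tissue composition in these differences was not tested. The same orders were not counted over all genes, so the counts of 12 and 15 do not show a trait particular to this set.

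**Figure D3:**
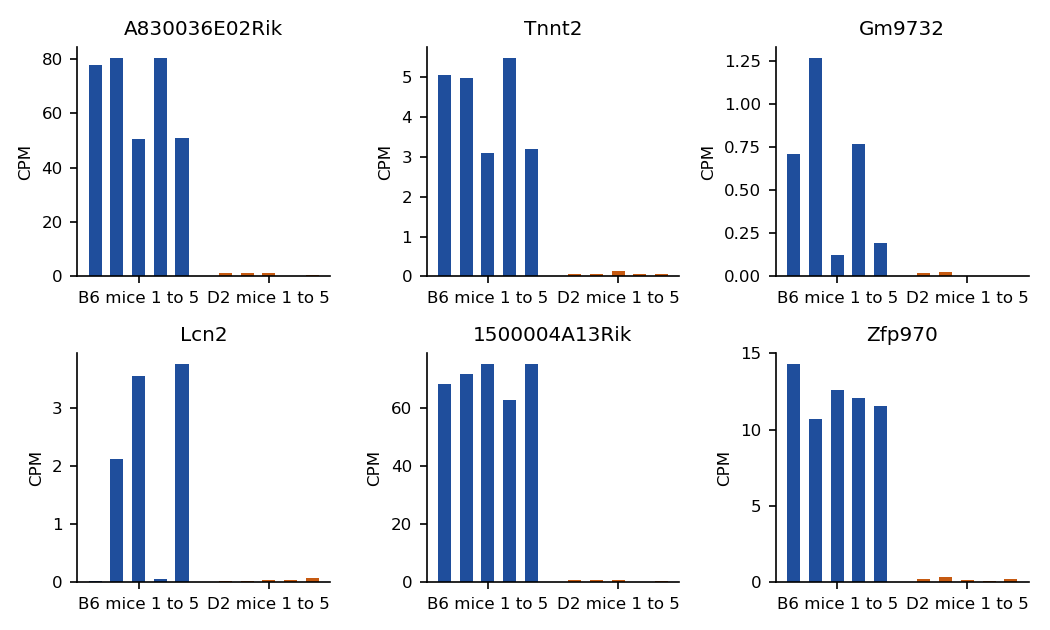
Level in CPM of 6 of the genes in each mouse, B6 mice 1 to 5 on the left and D2 mice 1 to 5 on the right of each panel, with axes starting at 0. B6 mice 3 and 5 are low in A830036E02Rik, Tnnt2 and Gm9732, Lcn2 is high in B6 mice 2, 3 and 5 only, and 1500004A13Rik and Zfp970 vary little among B6 mice.

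The group of 6 genes on chromosome 4 lay between 42153386 and 42880985 (GRCm39) and held Ccl27al, Gm17167, Gm13301, Gm10599, Gm21955 and Gm57141. Ccl27al is a chemokine gene related to Ccl27a, which attracts T cells to the skin. It had counts of 109, 110, 131, 96 and 163 in B6 and of 1 to 4 in D2. Gm21955, a TEC gene, was the most abundant of the 6, with counts of 1124, 1041, 931, 835 and 1169 in B6 and of 8, 5, 5, 3 and 3 in D2, or 9.75 ± 0.951 and 0.0427 ± 0.0168 CPM. The pseudogene Gm10599 had counts of 153, 137, 212, 148 and 195 in B6 and of 3, 1, 0, 0 and 0 in D2. Counts of the pseudogene Gm13301 were 42 to 77 in B6 and 0 to 3 in D2, and those of the lncRNAs Gm17167 and Gm57141 were 33 to 71 and 44 to 113 in B6 and 0 to 4 and 0 to 5 in D2. Of the 6, 5 have 8 or more copies above the limit, and the exception is Gm57141, with none. Ccl27al and Gm13301 each have a copy with 100% identity over the whole longest transcript, so no read from these longest transcripts could be placed at 1 locus by its sequence alone. For Ccl27al the longest transcript has 1699 bases, while the exon sequence annotated for the gene has 2714. How reads that match more than 1 locus were counted was not given in the sources used here. Gm21955 differs from its best copy by 34 substitutions among 4930 aligned bases.

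The gene 4930578G10Rik, which overlaps Gm21955 on the same strand over 2115 exonic bases, was lower in D2 (0.302 ± 0.101 and 0.0181 ± 0.0108 CPM, log2 fold change -4.02 ± 0.45 SE, edgeR adjusted p = 3.41e-05). The chemokine gene Ccl21a, 53.0 kb from Gm21955, went the other way, with counts of 0 to 6 in B6 and of 31 to 48 in D2 (log2 fold change 4.15 ± 0.51 SE, edgeR adjusted p = 7.86e-05).

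The group on chromosome 12 held Zfp125, the pseudogene 3110053B16Rik and the lncRNA Gm49700. Counts of 3110053B16Rik (ENSMUSG00000085642) were 67, 50, 68, 55 and 84 in B6 and 0, 1, 2, 0 and 0 in D2. A lncRNA with the same symbol but another identifier (ENSMUSG00000121318) contains it and was not a member, but was lower in D2 as well. This lncRNA had 0.590 ± 0.147 CPM in B6 and 0.0897 ± 0.0158 CPM in D2 (log2 fold change -2.74 ± 0.23 SE, edgeR adjusted p = 2.62e-06). It also contains Zfp125 on the same strand and shares 1242 exonic bases with it. Gm49700 had counts of 122, 80, 53, 105 and 94 in B6 and of 5, 5, 4, 10 and 3 in D2, which put it closest to the limit of 5%. None of these 3 has a copy above the limit. The pseudogene Gm47446 and the lncRNA 2410018L13Rik, between 23 and 25 Mb of the same chromosome, had best copies of 98.7% and 98.6% identity. Gm47446 had counts of 89, 73, 65, 71 and 75 in B6 and of 1 to 4 in D2.

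The 7 TEC genes had median D2 levels of 0 to 4.38% of B6. Their median B6 levels were 0.601 to 10.01 CPM, and no count was above 23 in D2 or under 56 in B6. Of the 47 genes, 5 lie wholly inside a protein-coding gene without sharing an exon with it, and these pairs allow the level of the containing gene to be read beside that of the member. Gm45793 lies in Me3 on the same strand and had counts of 629, 605, 609, 455 and 707 in B6 and of 5 to 11 in D2. Me3, which encodes a mitochondrial malic enzyme, had 77.7 ± 8.16 CPM in B6 and 83.9 ± 5.69 CPM in D2 and did not pass the test (edgeR adjusted p = 0.567). Gm45640 lies in Chd9, a chromatin remodeller gene, and had counts of 223 to 387 in B6 and of 9 to 23 in D2, while Chd9 was higher in D2 (101 ± 6.97 and 127 ± 3.85 CPM, log2 fold change 0.31 ± 0.05 SE, edgeR adjusted p = 0.000584). Gm43609 lies in Abcd3, a peroxisomal transporter gene that was called lower by a small amount (log2 fold change -0.10 ± 0.03 SE, edgeR adjusted p = 0.0217) but not when column totals alone set the scale (adjusted p = 0.149). Gm45854 lies in Csnk2a2 and Gm38024 in Sntg1, and neither containing gene passed the test (edgeR adjusted p = 0.853 and 0.860). None of these 5 containing genes shared the near absence of its member.

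Sequence copies were common in the set. A second locus with at least 95% identity over at least 50% of the longest transcript was found for 19 of the 47 genes (40.4%), against 10.3% of all annotated genes and 78.2% of the D2 counterpart set. The best copy lay on the same chromosome in 18 of the 19 and had at least 99% identity in 9. The exception was the lncRNA Gm49708 on chromosome 16, with 25 copies above the limit. The other 28 had no copy above the limit. They include A830036E02Rik, Gm5148, Fggy, Tnnt2 and Lcn2.

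Genes near the members were lower in D2 more often than genes in general. Within 100 kb of a member lay 250 genes that were not members, and 68 of them were called lower in D2 (27.2%, against 9.83% of all genes) and 27 were called higher (10.8% against 8.5%). Among the 149 genes within 50 kb, 34.2% were called lower and 9.40% higher, and among the 964 within 500 kb, 16.6% were called lower and 12.9% higher. With column totals alone as the scale, 61 neighbours were called lower and 33 higher, and over all genes the balance turned, from 2937 lower and 2541 higher to 2468 lower and 3012 higher. The 29 neighbours that overlap a member held 16 calls lower and 3 higher. Among the 221 that do not overlap one, 52 were called lower (23.5%) and 24 higher. For protein-coding genes the shares called lower were 25.6% of 160 neighbours and 11.9% of all protein-coding genes. Around the D2 counterpart set, 422 neighbours held 15.4% called higher in D2 and 10.4% called lower. Neighbours of 1 member share their place in the genome and are not independent of each other, and no set test was made.

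**Figure D4:**
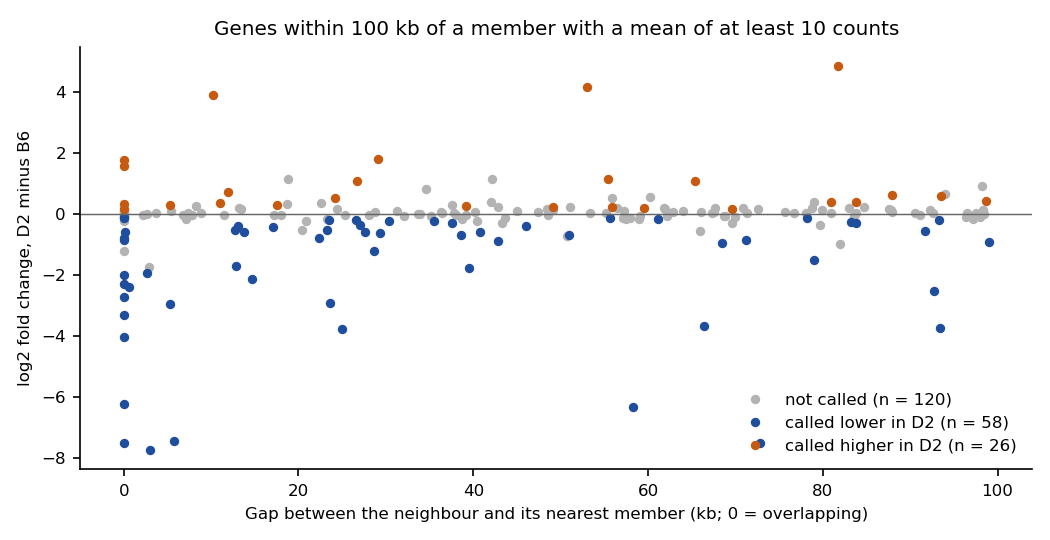
log2 fold change (D2 minus B6) of the 204 genes within 100 kb of a member that had a mean of at least 10 counts, by the gap in kb to the nearest member, with overlapping genes at 0. Of the 204, 58 were called lower in D2 (28.4%, against 12.2% of all genes at that minimum). Called higher were 26 (12.7% against 10.5%). Genes called lower are found over the whole range of gaps.

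The nearest counted gene on either side of the 10 protein-coding members with the highest B6 CPM showed no single pattern. Of 18 such genes that were not members, 5 were called lower, 5 higher and 8 were not called. Across the 21476 table genes that averaged 10 counts or more, as these 18 did, 12.2% were called lower and 10.5% higher. The 5 lower were Gm14418, Junos, Lad1, Slc25a37 and Gm3055. Gm14418, 66.4 kb to the left of Zfp970, fell from 1.88 ± 0.498 to 0.148 ± 0.0319 CPM (log2 fold change -3.68 ± 0.21 SE, edgeR adjusted p = 7.25e-08). Slc25a37, which encodes the iron carrier mitoferrin beside Gm16867, was lower by a log2 fold change of -0.13 (edgeR adjusted p = 0.0203), but not when column totals alone set the scale (adjusted p = 0.0835). The 5 higher were Mysm1, Zfp979, Rps19-ps3 and the low-count genes Gm43820 and Rpl31-ps15. Zfp979, on the left of Zfp984, rose from 0.857 ± 0.157 to 1.94 ± 0.229 CPM (log2 fold change 1.15 ± 0.13 SE, edgeR adjusted p = 4.21e-05). The ribosomal pseudogene Rpl31-ps15 beside Gm5148 had counts of 1 or 2 in B6 and of 21 to 50 in D2 (log2 fold change 3.88 ± 0.40 SE, edgeR adjusted p = 1.35e-05).

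The counts that remained in D2 differed between D2 mice. Summed over the 47 genes, D2 mice 1 to 5 held 522, 490, 535, 266 and 289 counts, or 1.82%, 1.83%, 1.90%, 0.955% and 1.12% of the mean B6 level. D2 mice 4 and 5 were below the other 3, and in 20 of the 47 genes both were at or below the lowest of the others. This count includes ties, also at 0, and was not made over all genes. The 2 most abundant lncRNAs showed the wider gap, at 1.47%, 1.52% and 1.64% in D2 mice 1 to 3 and 0.434% and 0.6496% in D2 mice 4 and 5. Over the rest of the set the values were 2.24% to 2.28% and 1.62% to 1.69%. In the opposite direction, the D2 counterpart set stood at 2.03%, 0.967%, 1.49%, 6.37% and 1.44% of its mean D2 level in B6 mice 1 to 5. The source of these remaining counts was not tested.

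**Figure D5:**
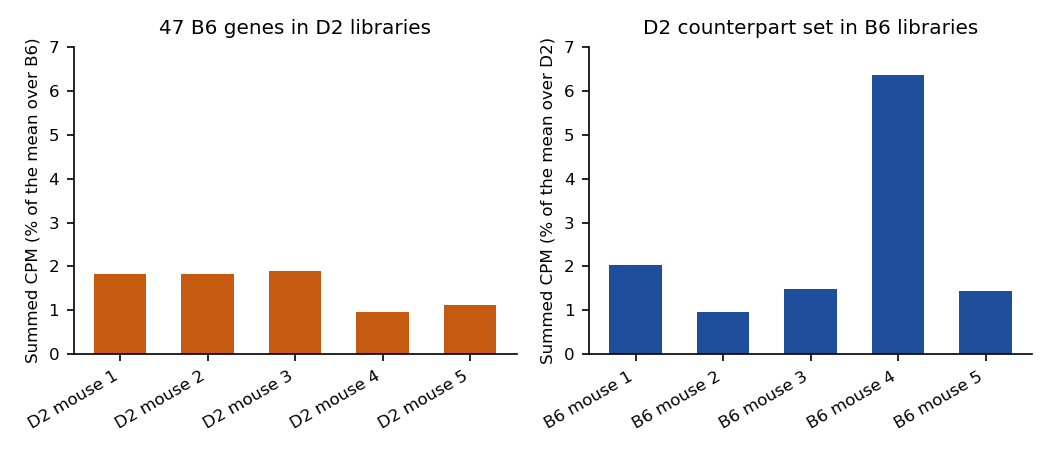
Left, CPM summed over the 47 B6 genes in each D2 library, as % of the mean over B6. Right, CPM summed over the 101 genes of the D2 counterpart set in each B6 library, as % of the mean over D2. The D2 libraries lie between 0.955% and 1.90%, and B6 mouse 4 is at 6.37% while the other B6 libraries are at 0.967% to 2.03%.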

How the data were processed

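Per the labels and methods, the authors dissected the NAc, made stranded poly-A libraries, trimmed paired-end reads with fastp 0.22.0 and aligned both strains to the B6 genome (GRCm39, Ensembl release 108) with STAR 2.7.10b, sorting with SAMtools 1.6. The deposited table holds raw counts per gene from featureCounts for 10 mice, without genes whose median was 0. The table's own summary columns were not used. Counts were divided by column totals for CPM. The members and all lists were chosen with earlier results of these data known.

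Genes that are not members were tested with the quasi-likelihood test of edgeR 4.0.16 (TMM scaling, strain as the only term, all 29883 genes, Benjamini-Hochberg adjustment, called at 0.05), with DESeq2 1.42.0 as an alternative. The procedure was tested on simulated data. Gene class and position came from GENCODE M39 on GRCm39. Exon lengths and overlaps came from the same annotation, which may differ from the one used in counting. Copies were sought with minimap2 2.31-r1302 by spliced alignment of each gene's longest transcript.

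Described in full were the 10 protein-coding, 6 lncRNA and 6 pseudogene members with the highest B6 CPM and groups of 3 or more within 1 Mb, with the nearest gene of at least 10 mean counts on either side of those 10. Overlapping genes, containing genes, genes at the best copies, Tnni1, Ifi202b, Ifi204, Ifi203-ps, Ccl21a, Mndal and further TEC genes were named after their values were seen. Deviations of same-numbered mice were correlated with mixed sign and the labels state no pairing, so mice were not paired. Results that need an item withheld from the text are not reported here.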

Additional observations from a re-analysis of the deposited data

Results flagged for a closer look

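The spread within each group of 5 mice was examined for 62 groups of values by the gap of the most extreme mouse relative to the range, with a limit of 0.71, and 4 exceeded it. Chance alone flags about 1 in 20 such groups. The D2 counterpart set in B6 mouse 4 stood at 6.37% of its mean D2 level, against 0.967% to 2.03% in the other B6 mice. Fggy was lowest in B6 mouse 4, at 6.65 CPM against 7.37 to 7.60 CPM in the other B6 mice. 4930481A15Rik was lowest in B6 mouse 2, at 1.82 CPM against 2.32 to 2.51 CPM. Gm47446 was highest in B6 mouse 1, at 0.798 CPM against 0.670 to 0.702 CPM. What sets these mice apart was not tested.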

How the results depend on the processing

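The number of genes expressed almost only in B6 was 30 with a ratio limit of 2%, 76 with 10% and 27 with a minimum of 1 CPM, against 47, and the D2 counterpart set was 59 with a ratio limit of 2%, against 101. The other scalings, the mean in place of the median and 0.25 CPM kept both counts within 1.5 times. Leaving out 1 mouse gave 45 to 51 and 100 to 114 genes, the 114 being without B6 mouse 4. Neighbours called lower in D2 numbered 160 of 964 within 500 kb and 41 of 160 when only protein-coding ones were counted, against 68 of 250, and 61 to 69 when 1 mouse was left out. The 52 neighbours that overlap no member were counted as an alternative chosen after seeing the data. Genes called lower in D2 numbered 2937 and 2493 to 2973 with 1 mouse left out. Calls on single genes near the threshold, such as Gm14322, Abcd3, Gm43820, Pkp1 and Zfp971, changed under some settings. Among the 34 named genes refitted, 3 that had not passed changed direction. These were Sntg1 (log2 fold change 0.01193 with column totals as the scale and -0.05381 to 0.01889 with 1 mouse left out, against -0.01904), Csnk2a2 (-0.003859 to 0.02296 with 1 mouse left out, against 0.01257) and Ifi211 (-0.4123 to 0.3096 with 1 mouse left out, against -0.11). The median log2 fold change of all genes lay between -0.00478 and 0.0349 in these fits.

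With mouse number as a replicate block, 2487 genes and 60 neighbours were called lower. Correlations of the deviations of same-numbered mice were 0.413, -0.449, 0.411, 0.013 and -0.328. The best partner of B6 mice 1 and 3 was the same-numbered D2 mouse, and that of B6 mice 2, 4 and 5 was not. With these mixed values a pairing by number is not established.

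Depth limits the values of members in D2, where 18 genes had a count of 0 in at least 1 mouse. A count of 0 allows up to 0.0257 to 0.0287 CPM per D2 library, for counting error only.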

Other observations

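A stretch of chromosome 10 near Gm32687 held genes that differed between D2 mice, and these genes were named after their values were seen. Zfp433, at the best copy of Gm32687, had counts of 157, 186, 172, 15 and 72 in D2 mice 1 to 5 and of 103 to 145 in B6. Zfp781b, the nearest gene to the right of Gm32687, had counts of 130, 101, 130, 2 and 50 in D2 and of 60 to 127 in B6. Gm3055 had counts of 92, 64, 68, 0 and 19 in D2. D2 mouse 4 was the lowest and D2 mouse 5 the second lowest in all 3 genes, and they were also the 2 D2 mice with the fewest counts over the 47 genes. Gm32687 itself had counts of 5, 3, 1, 3 and 3 in D2 and did not follow this order.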
